A study of Danio rerio with 6 samples.

Results

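Oxidative phosphorylation genes were examined in whole zebrafish (Danio rerio) embryos at the sphere stage, a late blastula stage before gastrulation. Genes were taken by symbol: those starting with nduf, sdha to sdhd, uqcr, cox4 to cox8, atp5 or cycs, with older symbols, RefSeq accessions and map markers of the array design counted. This gave 97 array targets for 69 genes, out of 12488 genes that could be named among 38489 targets, and each gene was represented by its target with the highest mean in the authors' value table. Of the 69 genes, 28 were assigned by symbol to complex I, 4 to complex II, 5 to complex III, 12 to complex IV and 12 to complex V, and 1 encoded cytochrome c. A further 5 encoded assembly factors of complexes I and II. The remaining 2, dmac2l and emc8, were matched only through the letters of their older symbols atp5s and cox4nb.

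The respiratory chain lies in the inner mitochondrial membrane. Complexes I and II take electrons from NADH and succinate and pass them through ubiquinone to complex III, cytochrome c carries them on to complex IV, and complex IV reduces oxygen. Complexes I, III and IV move protons across the membrane, and complex V, the ATP synthase, uses their return to make ATP. Nearly all subunits are encoded in the nucleus, and a small set is encoded by the mitochondrial genome. A fish egg is stocked with maternal mitochondria and maternal transcripts, and embryonic transcription begins during the blastula stage.

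The study compared embryos injected with a control morpholino (control-MO, 3 arrays) with embryos injected with a morpholino against nanog-like (nanog-like-MO1, 3 arrays). A morpholino is an antisense oligonucleotide that blocks translation or splicing of its target, and Nanog is a homeodomain factor of the early embryo. Both groups were grown in E3 fish water and both carried an injection; the phenotype was normal in control-MO embryos and a gastrulation defect in nanog-like-MO1 embryos. No morpholino dose, strain or uninjected group was given in the labels, and the injected group rests on 1 morpholino against the gene. The sample labels describe replicates from separate cultures, while the series text speaks of separate embryos, so the p-values measure the spread between these arrays, whatever its source. Each array was a 1-colour Cy3 array with 387190 probes, and levels below are normalized log2 intensities, in which a difference of 1 is a 2-fold change.

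Across all targets, 250 (0.65%) passed an adjusted p of 0.05 (limma, Benjamini-Hochberg over all 38489 targets), 100 higher (0.26%) and 150 lower (0.39%) in nanog-like-MO1. The nanog transcript itself was at 14.91 in control-MO and 14.89 in nanog-like-MO1 (adjusted p = 0.983), which is no check of a morpholino that leaves the transcript in place. The 10 blastula and enveloping layer markers lay at mean levels of 11.66 to 14.90, and the 11 muscle, blood and neuron markers at 6.36 to 10.66, with 0 of these 11 passing the test. Of the 5 blastula markers sox3 alone passed and fell, by 4.16 on the log2 scale. Of the 5 enveloping layer markers 0 passed, with log2 fold changes from -0.41 (krt5) to 0.64 (cldne, adjusted p = 0.373, groups apart). Of the yolk syncytial layer markers, 3 of 4 were measured (mxtx2, hnf4a and gata6) and all 3 fell, with a median log2 fold change of -2.69 and groups that did not overlap. Per array, the median of these 3 markers, as a difference from the control mean, was -0.64 to 0.35 in control-MO and -3.19 to -2.36 in nanog-like-MO1, and their part in the values below was not tested. In whole embryos, fewer cells of a type and less RNA per cell cannot be told apart. By the array numbers in the labels, control-MO replicates 1, 2 and 3 and nanog-like-MO1 replicate 3 fell in 1 number range. The other nanog-like-MO1 arrays fell outside it. With the array number range as a term in the fit, the group difference is therefore that of nanog-like-MO1 replicate 3 alone from the control-MO mean. Differences within that range are given for some, not all, of the genes where they departed from the pooled ones. Among those not taken up below, ndufb2 gave 0.25 within the range and -0.30 pooled, and ndufa11 -0.50 and -0.32.

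None of the 69 oxidative phosphorylation genes changed at an adjusted p of 0.05; the smallest adjusted p was 0.158, for ndufb10. At an unadjusted p of 0.05, 6 genes were lower, against 5.03% of all targets, and 1 was higher, against 5.3% of all targets. The 6 were ndufb10, ndufab1b, ndufa8, ndufa11, cox5b2 and atp5meb, and the 1 was the assembly factor ndufaf2. By the authors' RMA values, 5 of the 69 genes were lower and 0 higher at an unadjusted p of 0.05. None passed the adjusted test, where 369 of all 38489 targets did. The share of all targets at an unadjusted p of 0.05 is not given for the RMA values. Their counts of 5 and 0 are therefore not read as an excess or a lack. The levels of the 2 groups did not overlap for 12 of the 69 genes, against 15.3% of all targets. The nanog-like-MO1 arrays were the lower ones without overlap for 10 of the 69 genes, against 7.97% of all targets. They were the higher ones for 2 of the 69, against 7.36% of all targets.

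The sizes of the differences were bounded as well. The 95% confidence interval of the change lay inside 2-fold in either direction for 66 of the 69 genes, against 86.8% of all targets; the exceptions were cox5b2, ndufaf2 and atp5po. Fewer of the intervals lay inside 2-fold with the array number range as a term, where the difference rests on nanog-like-MO1 replicate 3 alone. The share of all targets in that fit is not given. Because low intensities are compressed, the count was also taken over the 65 genes at or above the 25th percentile of target means: 62 of them had such an interval, against 82.8% of the targets above that percentile. The 4 genes below that percentile were sdhda, sdhaf4, cox5bb and cox6b1. The standard errors of the 69 log2 fold changes ran from 0.10 to 0.47, with a median of 0.15. The log2 fold changes had an SD of 0.26 across the 69 genes and 0.34 across all targets, and 67 of the 69 (97.1%) lay within 0.5 of 0, against 91.4% of all targets.

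The log2 fold changes of the 69 genes had a median of -0.11 and were below 0 for 52 of them (75.4%), while the median over all targets was -0.01 and 52.9% of targets were below 0. This shift was within the spread between arrays. As the median difference from the control mean, the 69 genes stood at -0.08, -0.03 and 0.09 on control-MO replicates 1, 2 and 3 and at -0.07, -0.13 and -0.09 on nanog-like-MO1 replicates 1, 2 and 3. Control-MO replicate 3 was the highest array, and control-MO replicate 1 was lower than nanog-like-MO1 replicate 1, so the groups overlapped. Without control-MO replicate 3 the median log2 fold change was -0.06. Centred on 12 reference genes, the median was -0.03 for the 69 genes, 40 of them below 0, and 0.07 for all targets.

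**Figure D1:**
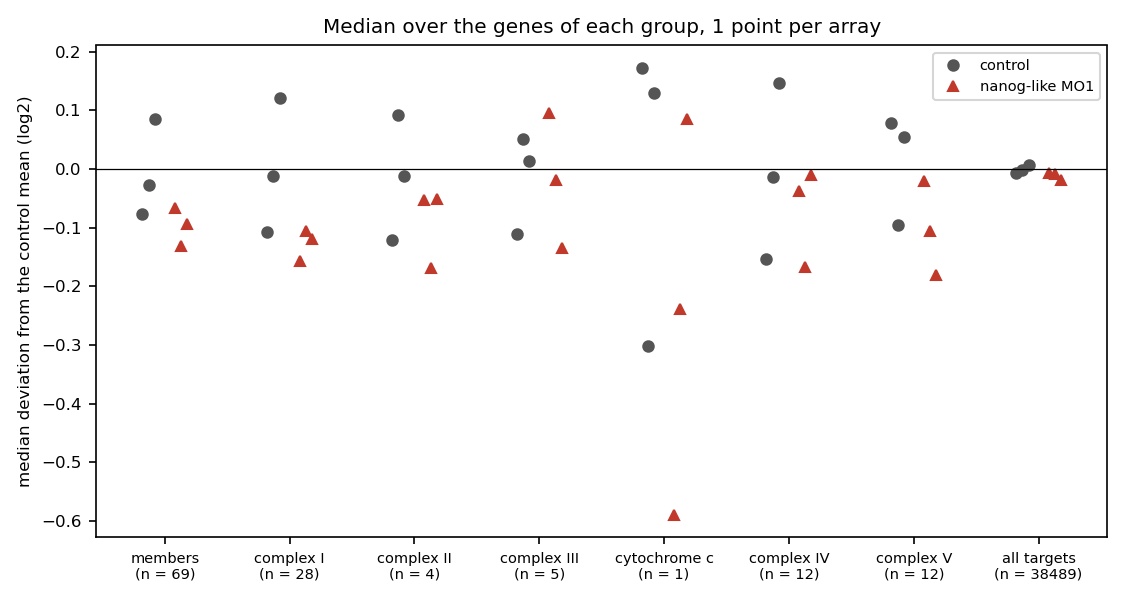
Median difference from the control-MO mean on each of the 6 arrays (vertical axis, log2), for the 69 oxidative phosphorylation genes (members), their complexes and all targets; circles are control-MO and triangles nanog-like-MO1 arrays. The median over the 69 genes spans -0.08 to 0.09 on the control-MO arrays and -0.13 to -0.07 on the nanog-like-MO1 arrays, so the groups overlap.

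**Figure D2:**
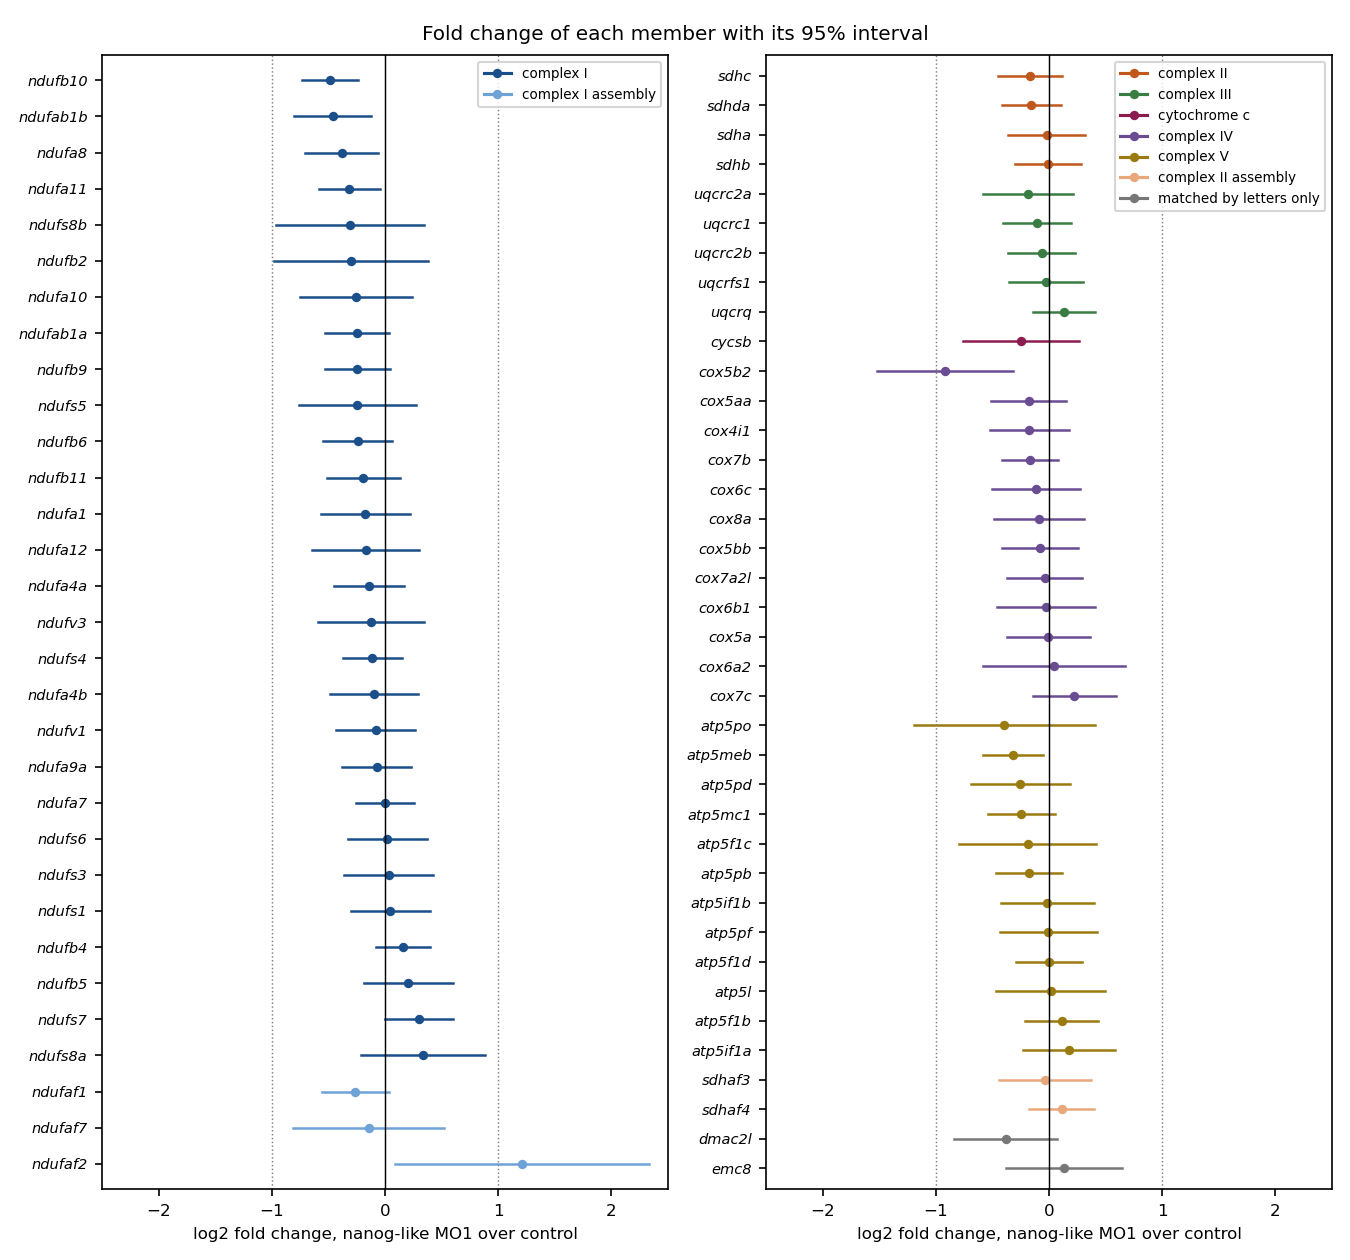
Log2 fold change of each of the 69 genes, nanog-like-MO1 minus control-MO (horizontal axis), with its 95% confidence interval as a bar, ordered by class; the dotted lines mark 2-fold. Of the 69 intervals 66 lie inside the dotted lines, and the exceptions are cox5b2, ndufaf2 and atp5po.

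Complex I, the NADH dehydrogenase and the largest of the complexes, had 28 genes on the array. Their log2 fold changes ran from -0.49 to 0.34 with a median of -0.16, 20 of the 28 were below 0, and all 28 intervals lay inside 2-fold. After centring on the reference genes the complex I median was -0.074, with 19 of 28 below 0, where the median over all targets was 0.069. Per array the complex I median was -0.108, -0.012 and 0.121 on the control-MO arrays and -0.156, -0.105 and -0.120 on the nanog-like-MO1 arrays. Control-MO replicate 1 was narrowly below nanog-like-MO1 replicate 2, so the groups overlapped, and again control-MO replicate 3 was the highest. In the RMA table the complex I medians did not overlap, at -0.126, -0.044 and 0.124 in control-MO and -0.205, -0.142 and -0.148 in nanog-like-MO1. The 12 reference genes were apart and lower in that table as well, as given below, and neither difference was tested. By name, 10 of the 11 ndufa genes, 5 of the 7 ndufb genes, 3 of the 8 ndufs genes and 2 of the 2 ndufv genes were below 0.

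The core subunits include those with the flavin and the iron-sulfur clusters that move electrons through complex I. The 6 measured core genes had a median log2 fold change of 0.04, with 2 of 6 below 0; under centring of each array on its median it was -0.045, while the median over all targets was then -0.0997. The subunit gene ndufs7, whose product carries the last iron-sulfur cluster before ubiquinone, was at 9.52, 9.63 and 9.66 in control-MO and 10.09, 9.73 and 9.88 in nanog-like-MO1. All nanog-like-MO1 arrays were above all control-MO arrays, the log2 fold change was 0.30 with an SE of 0.13, and the adjusted p was 0.493. A second array target of ndufs7 gave 0.31 and also did not overlap. The ndufs8a levels were 11.65, 11.69 and 10.90 in control-MO and 11.80, 11.59 and 11.85 in nanog-like-MO1, a log2 fold change of 0.34 (SE 0.23, adjusted p = 0.72) in which control-MO replicate 3 was the low array. Its paralog ndufs8b ran from 8.53 to 9.34 in control-MO and from 8.32 to 9.09 in nanog-like-MO1 (log2 fold change -0.31, adjusted p = 0.798), with groups that overlapped; within the array number range shared by both groups its difference was 0.13. The large subunit gene ndufs1 gave 0.05, the ndufs3 gene 0.03 and the NADH-binding subunit gene ndufv1 -0.08, each with a 95% interval that held 0.

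The other 22 genes counted by symbol with complex I include ndufa4a and ndufa4b, which are taken up below. The rest encode accessory subunits, which surround the core and are needed for its assembly and stability in mammals. The 22 genes had a median log2 fold change of -0.18, with 18 of 22 below 0, against 52.9% of all targets. The median of the 22 stayed below 0 under the scalings run, at -0.10 after centring on the reference genes and -0.25 in the authors' RMA table. Per array their median was -0.108, -0.042 and 0.148 on the control-MO arrays. On the nanog-like-MO1 arrays it was -0.205, -0.133 and -0.246, so here the groups did not overlap. They were also apart in the RMA table, at -0.126, -0.070 and 0.237 against -0.335, -0.147 and -0.191. In that table the 12 reference genes were apart and lower as well, at 0.009, 0.019 and -0.038 against -0.081, -0.149 and -0.099. A separation there is thus not particular to the 22 genes. The 22 genes were not tested as a set, and the planned grouping was by complex, without this split of complex I. All 4 complex I genes with an unadjusted p under 0.05 were accessory. The ndufb10 gene, which encodes a subunit of the membrane arm and lies on chromosome 3 at 11684044 to 11689876 (Zv7), was at 10.33, 10.15 and 10.11 in control-MO and 9.66, 9.74 and 9.73 in nanog-like-MO1. The groups were clearly apart, with a log2 fold change of -0.49 (SE 0.10, 1.40-fold lower, 95% interval -0.74 to -0.24), but the adjusted p was 0.158. In the RMA table the ndufb10 change was -0.50 with an adjusted p of 0.284.

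The ndufab1b gene encodes a mitochondrial acyl carrier protein, which serves fatty acid synthesis as well as complex I. Its levels were 8.62, 8.68 and 9.01 in control-MO and 8.18, 8.31 and 8.43 in nanog-like-MO1, a log2 fold change of -0.46 (SE 0.14, adjusted p = 0.33). Its paralog ndufab1a was at 11.06, 11.16 and 11.29 against 11.02, 10.97 and 10.77, a change of -0.25 (SE 0.12, adjusted p = 0.56). Neither pair of groups overlapped. The accessory gene ndufa8 was at 10.17, 10.38 and 10.60 in control-MO and 9.95, 10.05 and 9.99 in nanog-like-MO1 (log2 fold change -0.38, SE 0.13, adjusted p = 0.388). The ndufa11 gene, for another membrane-arm subunit, was at 8.69, 8.70 and 8.70 in control-MO and 8.47, 8.47 and 8.20 in nanog-like-MO1 (log2 fold change -0.32, SE 0.11, adjusted p = 0.401). In both the groups were apart, and nanog-like-MO1 replicate 3 was the lowest array only for ndufa11.

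A few accessory genes were above 0. The ndufb4 gene was at 10.78, 10.59 and 10.73 in control-MO and 10.84, 10.90 and 10.83 in nanog-like-MO1, so the groups did not overlap, with a log2 fold change of 0.16 (SE 0.10, adjusted p = 0.691). The ndufb5 gene had a log2 fold change of 0.21 (adjusted p = 0.771) from overlapping groups, and another array target of ndufb5 gave -0.05. The ndufa4a and ndufa4b genes, whose mammalian counterpart is now assigned to complex IV, had changes of -0.14 and -0.10. Both are in the complex I counts above, by symbol. Within the array number range shared by both groups, ndufa4b gave 0.20.

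**Figure D3:**
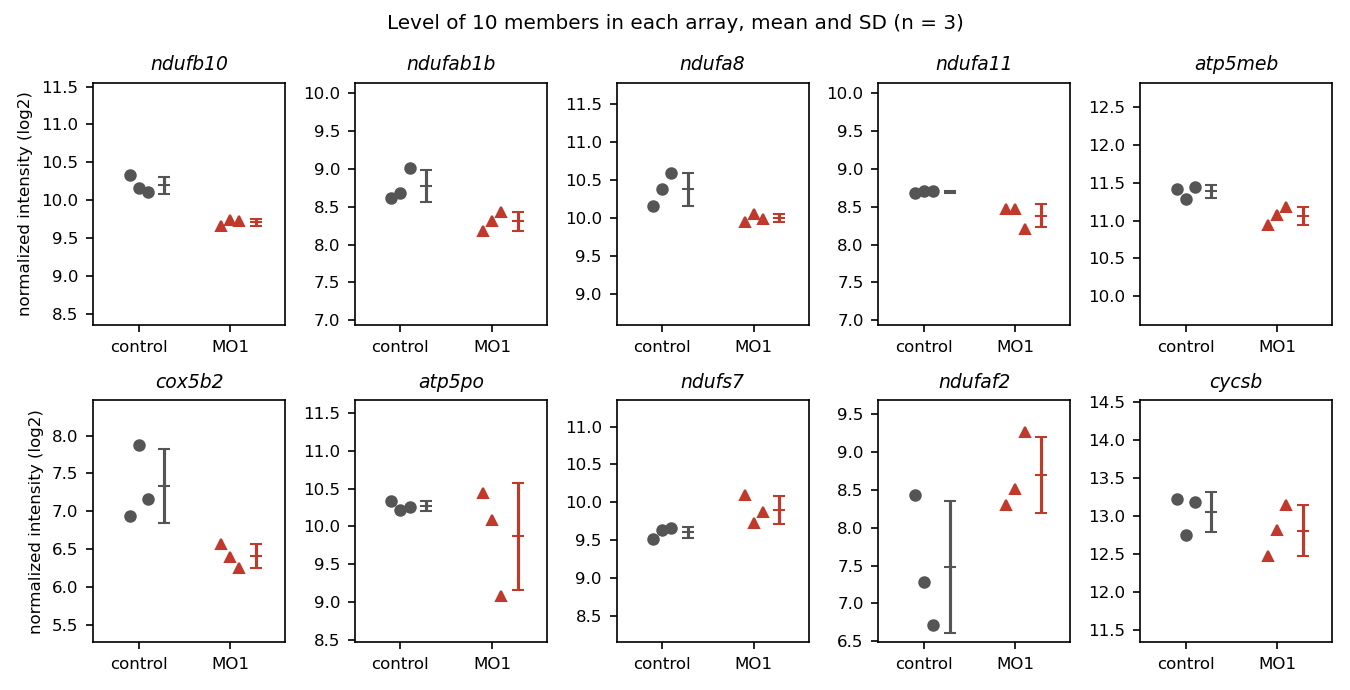
Normalized log2 intensity (vertical axis, 1 panel per gene, own scale) of 10 oxidative phosphorylation genes on each array; circles are control-MO arrays, triangles nanog-like-MO1 arrays, and the bars beside them the mean and SD (n = 3). For ndufb10 the nanog-like-MO1 arrays lie at 9.66 to 9.74 and the control-MO arrays at 10.11 to 10.33, while for cycsb, atp5po and ndufaf2 the groups overlap.

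Among the complex I assembly factors, ndufaf2 had the largest fold change of all 69 genes and also the largest uncertainty. Its levels were 8.44, 7.29 and 6.72 in control-MO and 8.30, 8.51 and 9.26 in nanog-like-MO1. Control-MO replicate 1 lay above nanog-like-MO1 replicate 1, so the groups overlapped, and the log2 fold change was 1.21 (SE 0.47, 95% interval 0.09 to 2.33, adjusted p = 0.443). The authors' RMA table put the same target at 2.69 to 3.27 on the 6 arrays, with a change of -0.01. The coefficient of variation between the probes of this target averaged 1.59, the highest of the 69 genes, where the next was 1.21 and the median 0.64. The ndufaf1 gene was at 10.38, 10.26 and 10.16 in control-MO and 10.04, 10.13 and 9.84 in nanog-like-MO1, a log2 fold change of -0.26 (adjusted p = 0.549) with groups that did not overlap. Other array targets of ndufaf1 gave -0.30 to 0.15, some of them with overlapping groups. The ndufaf7 gene gave -0.15, and the complex II assembly genes sdhaf3 and sdhaf4 gave -0.04 and 0.11.

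Complex II, succinate dehydrogenase, also works in the citric acid cycle and has no mitochondrially encoded subunit. The 4 genes measured were sdha, sdhb, sdhc and sdhda, and their log2 fold changes lay between -0.17 and -0.01. The flavoprotein gene sdha was at 12.82, 13.24 and 12.91 in control-MO and 13.06, 12.85 and 13.00 in nanog-like-MO1 (log2 fold change -0.02, 95% interval -0.36 to 0.32, adjusted p = 0.986). The iron-sulfur subunit gene sdhb was at 12.11, 12.39 and 12.25 against 12.37, 12.20 and 12.16 (log2 fold change -0.01, adjusted p = 0.994). For both, the nanog-like-MO1 arrays lay inside the control-MO range. The membrane anchor genes sdhc and sdhda gave -0.17 and -0.16, the latter from a target near the lower end of the array's range. Centred on the reference genes, sdha and sdhb were above 0, at 0.06 and 0.07, where the median over all targets was 0.07.

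Complex III, the cytochrome bc1 complex, had 5 genes with a median of -0.06 and 4 of 5 below 0. Centred on the reference genes the median was 0.02 with 2 of 5 below 0, where the median over all targets was 0.07. The Rieske iron-sulfur protein gene uqcrfs1 was at 11.47, 11.74 and 11.34 in control-MO and 11.57, 11.52 and 11.38 in nanog-like-MO1, a log2 fold change of -0.03 (95% interval -0.35 to 0.30, adjusted p = 0.977). The core protein genes uqcrc1, uqcrc2a and uqcrc2b gave -0.11, -0.19 and -0.06, and the small subunit gene uqcrq gave 0.13. The groups overlapped in all 5. The cytochrome c1 gene cyc1, which the symbol rule did not take in, was at 13.93 in control-MO and 13.80 in nanog-like-MO1 (log2 fold change -0.13, adjusted p = 0.741).

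Cytochrome c, the mobile carrier between complexes III and IV and a trigger of apoptosis when released, was represented by cycsb. Its levels were 13.23, 12.75 and 13.18 in control-MO and 12.46, 12.81 and 13.14 in nanog-like-MO1. The arrays of the 2 groups overlapped, nanog-like-MO1 replicate 1 was the lowest, and the log2 fold change was -0.25 (SE 0.21, adjusted p = 0.792). Within the array number range shared by both groups, the cycsb difference was 0.09.

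Complex IV, cytochrome c oxidase, had 12 nuclear-encoded genes with a median of -0.08 and 10 of 12 below 0. After centring on the reference genes it was -0.0034 with 7 of 12 below 0, where the median over all targets was 0.069. With the array number range as a term (nanog-like-MO1 replicate 3 alone) it was -0.0093, 6 of 12 below 0, against -0.019 for all targets. In the RMA table, with median centring and with cyclic loess it was -0.13, -0.11 and -0.050. The medians over all targets were then -0.029, -0.0997 and -0.0049. The cox4i1 gene, for the largest nuclear-encoded subunit, was at 9.84, 9.93 and 10.09 in control-MO and 9.54, 9.81 and 9.97 in nanog-like-MO1, a log2 fold change of -0.18 (adjusted p = 0.78) that was 0.02 within the array number range shared by both groups. The cox5aa gene gave -0.18 and the cox7c gene 0.22, with adjusted p-values of 0.757 and 0.724. The cox7b gene was at 7.52, 7.57 and 7.68 against 7.38, 7.51 and 7.37, groups that were barely apart, with a log2 fold change of -0.17 (adjusted p = 0.672). Apart from cox5b2, the remaining complex IV genes lay between -0.12 for cox6c and 0.04 for cox6a2.

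The cox5b2 gene encodes a form of the zinc-binding subunit and lies on chromosome 13 at 48499201 to 48501673 (Zv7). Its levels were 6.94, 7.88 and 7.16 in control-MO and 6.57, 6.40 and 6.26 in nanog-like-MO1. The groups did not overlap, control-MO replicate 2 was the highest array, and the log2 fold change was -0.92 (SE 0.25, 95% interval -1.52 to -0.32, adjusted p = 0.267). In the RMA table the same target gave 3.67, 4.10 and 4.48 in control-MO and 4.44, 3.90 and 3.75 in nanog-like-MO1, a change of -0.05 from overlapping groups. This was the lowest log2 fold change of the 69 genes, and its size depended on which set of values was used.

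Complex V, the ATP synthase, had 12 genes with a median of -0.10 and 9 of 12 below 0; these 12 include the ATPase inhibitor genes atp5if1a and atp5if1b. The median was -0.016 after centring on the reference genes and -0.064 under cyclic loess, with 6 of 12 below 0 in both. With the array number range as a term (nanog-like-MO1 replicate 3 alone) it was -0.18. The medians over all targets in these settings were 0.069, -0.0049 and -0.019. The catalytic beta subunit gene atp5f1b was at 13.76, 13.50 and 13.70 in control-MO and 13.97, 13.66 and 13.66 in nanog-like-MO1 (log2 fold change 0.11, 95% interval -0.21 to 0.43, adjusted p = 0.866). The gamma subunit is the rotating shaft of the enzyme, and its gene atp5f1c gave -0.19 from a target placed on chromosome 19 (Zv7) and 0.02 from a second target on chromosome 4. The first was named by map marker only and may belong to another gene, so the 2 values cannot be combined. The atp5meb gene, for the e subunit of the membrane part, was at 11.42, 11.28 and 11.44 in control-MO and 10.93, 11.07 and 11.17 in nanog-like-MO1. The groups were apart, with a log2 fold change of -0.32 (SE 0.11, 1.25-fold lower, adjusted p = 0.381).

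The peripheral stalk gene atp5po, for the subunit that confers oligomycin sensitivity, rested on 1 array. It was at 10.34, 10.21 and 10.26 in control-MO and 10.44, 10.08 and 9.08 in nanog-like-MO1. Nanog-like-MO1 replicate 3 was the lowest of the 6 arrays by about 1 log2 unit, and the log2 fold change was -0.40 (95% interval -1.20 to 0.40, adjusted p = 0.786). Without that array it was -0.01, and within the array number range shared by both groups, where that array is the only nanog-like-MO1 array, it was -1.19. The inhibitor genes atp5if1a and atp5if1b bind the ATP synthase when the membrane is de-energized and block its reverse reaction. They gave 0.17 and -0.02, with adjusted p-values of 0.82 and 0.993.

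The 2 genes matched by letters only are not counted among the subunits. The dmac2l gene, formerly atp5s, was at 9.54, 9.65 and 10.07 in control-MO and 9.43, 9.58 and 9.10 in nanog-like-MO1 (log2 fold change -0.39, adjusted p = 0.575). The emc8 gene encodes a subunit of the endoplasmic reticulum membrane complex and was named cox4nb for its place beside cox4i1. On Zv7 its target began 3186 bases beyond the end of the cox4i1 target on chromosome 18, and its log2 fold change was 0.13 (adjusted p = 0.915) where that of cox4i1 was -0.18. Leaving both genes out kept the median at -0.11. The count of calls was 0 with them and so could not change.

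Zebrafish kept duplicate copies of some of these genes, and 6 pairs had both copies on the array. For each pair the difference between the copies was taken on each array and compared between the groups with a 2-sided exact permutation test, in which 3 arrays against 3 cannot give a p below 0.1. For cox5b2 against cox5bb, whose target lay below the 25th percentile, the difference changed by -0.84 on the log2 scale without overlap (exact p = 0.1, adjusted over 6 pairs 0.48), but by 0.33 with overlap in the RMA table (exact p = 0.4). The nanog-like-MO1 levels of cox5b2 also lay below that percentile. The cox5bb gene alone gave a log2 fold change of -0.08, and -0.38 in the RMA table. For ndufs8a against ndufs8b the change was 0.64 (exact p = 0.2, adjusted 0.48) and 0.63 in the RMA table. The ndufab1, uqcrc2, atp5if1 and ndufa4 pairs gave 0.21, -0.12, 0.19 and -0.04, and 0.21, -0.11, 0.51 and 0.0092 in the RMA table. No pair passed in either set of values, and cross-hybridization between copies was not tested.

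Repeat measurements of a gene came from further array targets. Of the 69 genes, 17 had several targets, with 28 targets beyond the representative ones, and 0 of these 28 passed the test. The sign was that of the representative target for 24 of the 28. All were read on the same arrays, and some targets of a gene overlap in position, so they are no independent measurements. A lower-intensity target of ndufa4b was at 7.746, 7.999 and 7.876 in control-MO and 7.184, 7.787 and 6.899 in nanog-like-MO1. Its log2 fold change was -0.58 (SE 0.23, adjusted p = 0.458), against -0.10 for the representative target of ndufa4b and 0.00098 for another one, which lay below the 25th percentile.

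**Figure D4:**
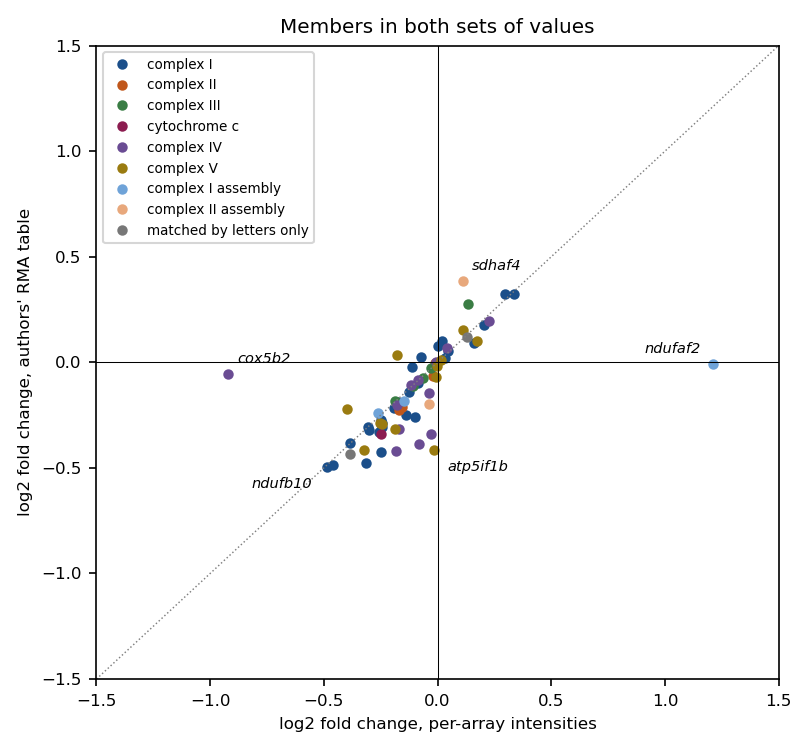
Log2 fold change of each of the 69 genes from the per-array intensities (horizontal axis) and from the authors' RMA table (vertical axis); colours give the class and the dotted line marks equality. The sign is shared by 65 genes, and ndufaf2 (1.21 against -0.01) and cox5b2 (-0.92 against -0.05) lie farthest from the line.

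The authors' RMA values came from the same arrays and so are no independent measurement. In them 50 of the 69 genes were below 0, 65 had the sign given by the per-array intensities, and the median log2 fold change was -0.18. The median over all targets was -0.03 in that table. Across all targets the log2 fold changes of both sets of values correlated at 0.889, a value across targets, which are not independent replicates.

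Other mitochondrial and metabolic genes were read from the same fit in 7 lists, with 0 of 176 measured genes passing the adjusted test, against 0.65% of all targets. The citric acid cycle and pyruvate dehydrogenase list, which supplies the chain with NADH and succinate, had 17 of 26 genes measured and a median log2 fold change of -0.04, with 0.04 after centring on the reference genes. Its extremes were mdh1ab at -0.32 and aco1 at 0.39, which encode the cytosolic forms of malate dehydrogenase and aconitase. The glycolysis list had 27 of 34 genes measured and a median of -0.10 (-0.20 under median centring and -0.02 under reference centring). At an unadjusted p of 0.05, 2 of the 27 were higher and 1 lower, against 5.3% and 5.03% of all targets.

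The respiratory chain assembly factors outside the symbol rule had 20 of 38 genes measured, a median of -0.12 and 17 of 20 below 0. They ran from cox16 at -0.28 to surf1 at 0.15, both complex IV assembly genes, and 0 reached an unadjusted p of 0.05. Regulators of mitochondrial biogenesis and of mitochondrial DNA had 18 of 28 measured and a median of -0.17. Here tfb1m, a mitochondrial ribosomal RNA methyltransferase gene, gave -0.82 with an SE of 0.50, and the coactivator gene ppargc1b gave 0.40. Carriers, porins and other electron carriers had 22 of 27 measured and a median of -0.14, between -0.47 for the ADP/ATP carrier gene slc25a4 and 0.33 for the uncoupling protein gene ucp1.

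Protein import genes had 27 of 34 measured and a median of -0.10. At an unadjusted p of 0.05, 5 of the 27 were lower and 0 higher, against 5.03% and 5.3% of all targets. By the same count the ribosomal protein list had 4 lower and 3 higher, biogenesis 2 lower and 0 higher, and carriers 1 lower and 0 higher. The extremes were dnajc15, a co-chaperone gene of the import motor, at -0.56 (SE 0.19, adjusted p = 0.385) and grpel1 at 0.07. The mitochondrial ribosomal protein genes, which serve translation of the mitochondrially encoded subunits, numbered 45 with a median of -0.16. Among them mrps22 was at 11.93, 11.91 and 11.76 in control-MO and 11.09, 11.46 and 10.78 in nanog-like-MO1, a log2 fold change of -0.75 (adjusted p = 0.223). The mrps18b gene was at 9.86, 9.44 and 9.88 against 10.47, 10.37 and 11.06, a change of 0.90 (adjusted p = 0.228). The groups were apart for both genes, in opposite directions. The 12 reference genes had a median of -0.08, and after centring on them the list medians lay between -0.09 (biogenesis) and 0.04 (citric acid cycle). The median over all targets was then 0.07. In the per-array intensities, the array medians of the outside assembly factor, import and ribosomal protein lists were apart between the groups, lower in nanog-like-MO1. The groups overlapped in the other lists, though in the RMA table the carriers list and the 12 reference genes were apart as well. These differences were not tested. The mitochondrially encoded genes were not analysed here.

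**Figure D5:**
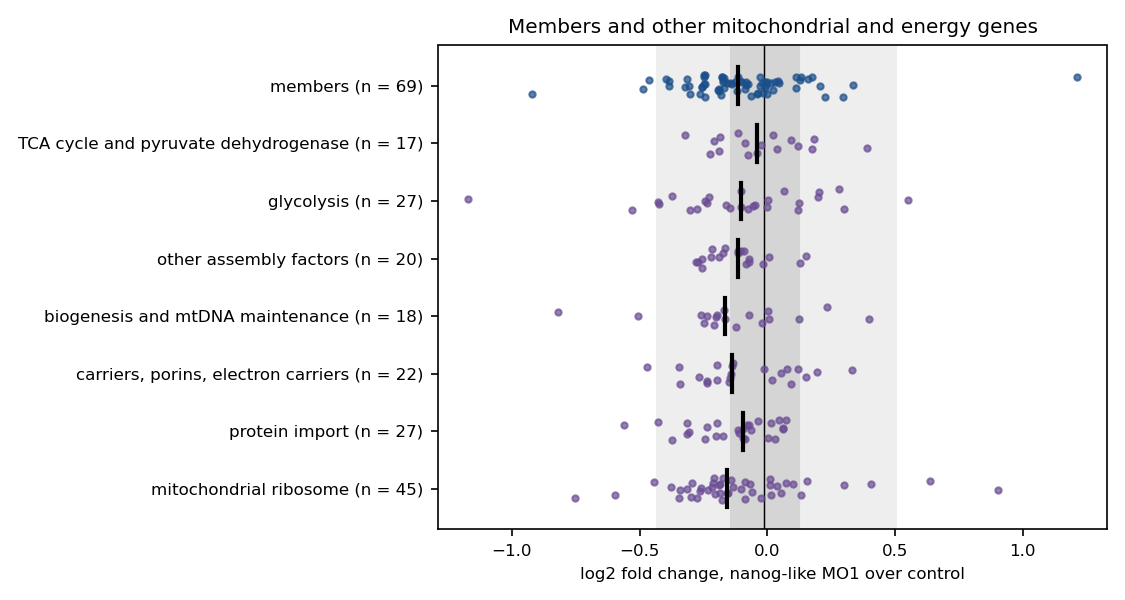
Log2 fold changes (horizontal axis) of the 69 oxidative phosphorylation genes, labelled members, and of the genes in 7 other lists, 1 point per gene, with the median of each as a black bar; the grey bands span the 5th to 95th (-0.43 to 0.50) and 25th to 75th (-0.14 to 0.13) percentiles of all targets and the vertical line their median (-0.01). The list medians run from -0.17 for the biogenesis list to -0.04 for the citric acid (TCA) cycle list.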

How the data were processed

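Per the labels' protocols, RNA was extracted with Trizol and labelled by the array maker. For each array the authors deposited 1 linear intensity per target, the mean of its perfect-match probes, with counts of probes (384758 to 385461 of 387190 kept) and the probes' coefficient of variation, a ratio, per the file headers. The array medians of these intensities were 408 to 529. The authors also deposited a table of linear intensities, per the submitters' processing notes from RMA, with column medians of 179.39 to 200.32. RMA's version and the table's scaling are not given in the sources used here. Detection calls were not used here, and precision is limited by there being 3 arrays a group.

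Intensities were corrected with normexp (offset 50, which understates folds of dim targets), quantile normalized and log2-transformed. The lowest value was 5.66 and the 25th percentile of target means 6.74. A linear model with a group term was fitted to all 38489 targets (R 4.3.3, limma 3.58.1, moderated 2-sided test from eBayes, Benjamini-Hochberg, threshold 0.05), after the code was tested on simulated data. Lists were described by counts and medians, and duplicate pairs by exact permutation (scipy 1.17.1).

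Of the 69 genes, 28 were named by older symbol, 19 by map marker, 14 by current symbol, 7 by RefSeq accession and 1 by Entrez number. Names came from RefSeq (GRCz12tu) and coordinates from the array design (Zv7). One target, cox5a, could be cox5aa or cox5ab. The genes and lists were chosen with earlier results of these data known. The text names genes passing the test, the 8 largest changes in each direction, core subunits and duplicate pairs, and the extremes of each other list except glycolysis; cox7b, ndufaf1, ndufaf7, sdhaf3, emc8, cyc1, the dim genes and the groups that did not overlap were named after their values were seen. One glycolysis gene is not reported here.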

Additional observations from a re-analysis of the deposited data

How the results depend on the processing

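In the 20 other settings run for the oxidative phosphorylation genes, 0 passed the adjusted test, and their median log2 fold change was below 0 in each. Settings that only left genes out of the main fit (assembly factors, letter-only, map-marker or dim genes) could not give a call, as that fit gave 0. The median was -0.18 in the RMA table, -0.19 with each array centred on its median and -0.033 centred on the reference genes. Genes higher at an unadjusted p of 0.05 numbered 0 in the RMA table and with the replicate block. They numbered 2 with no background correction, cyclic loess or reference centring, and reference centring left 3 lower. Without assembly factors 0 were higher, since ndufaf2, the only gene higher in the main fit, is an assembly factor. Leaving out 1 array at a time gave 0 to 1 higher, 3 to 6 lower, 16 to 22 genes without overlap (groups of 2 overlap less by construction) and medians of -0.16 to -0.06. The shares of all targets at an unadjusted p of 0.05 or without overlap are not given for these other settings. These counts are therefore not read as an excess or a lack. Over all targets, 163 were higher in the RMA table; leaving out 1 array gave 95 to 185 called (35 to 66 higher, 60 to 119 lower, fewest without control-MO replicate 3), and the array range as a term 118 (72 higher, 46 lower). The median over all targets was -0.029 in the RMA table, -0.0049 with cyclic loess, -0.0997 with median centring and 0.069 with reference centring. Replicate numbers did not pair the samples: same-numbered arrays deviated with correlations of -0.013, -0.097 and 0.17, and the replicate block gave 133 calls (45 higher, 88 lower). Median centring moved the list medians to -0.17 (citric acid cycle), -0.20 (glycolysis), -0.19 (assembly factors), -0.22 (carriers) and -0.20 (import); reference centring to -0.034, -0.059 and -0.014 for assembly factors, carriers and import and -0.075 for ribosomal proteins, -0.021 for glycolysis and -0.086 for biogenesis. The citric acid cycle had -0.099 in the RMA table and 0.042 with reference centring, and carriers -0.067 with the array range as a term. The assembly factors had -0.19 in the RMA table, -0.14 with offset 16 and without dim targets, -0.091 with cyclic loess and -0.057 with or within the array range; import had -0.21 in the RMA table and -0.18 with or within the range. Leaving out 1 array gave -0.14 to -0.096 for assembly factors, -0.16 to -0.015 for carriers (the latter without control-MO replicate 2) and -0.14 to -0.087 for import. Of 658 values of the 38 genes named by rule, 46 reversed, in 16 genes, while 10 were classed as moved and 602 as the same. The bounds of these classes are not given here, so the same class does not mean an unchanged size. Reversals with median centring were atp5f1b -0.024, ndufs1 -0.080 and ndufs3 -0.010; with reference centring atp5if1b 0.064, sdha 0.061, sdhb 0.071, uqcrc2b 0.017 and uqcrfs1 0.053; with cyclic loess atp5if1b 0.030; in the RMA table ndufaf2 -0.0061. With or within the array range they were atp5if1b 0.31, cox4i1 0.022, cycsb 0.086, ndufa4b 0.20, ndufs1 -0.0020, ndufs3 -0.26, ndufs8b 0.13 and sdha 0.010. By another target of the gene they were atp5f1c 0.021, ndufa4b 0.00098 and ndufb5 -0.046. Leaving out 1 array gave atp5if1b -0.18 to 0.12, ndufa4b -0.25 to 0.019, ndufs1 -0.047 to 0.18, ndufs3 -0.098 to 0.18, ndufv1 -0.20 to 0.025, sdha -0.10 to 0.10, sdhb -0.081 to 0.060, uqcrc2b -0.15 to 0.039 and uqcrfs1 -0.12 to 0.083. Reference centring adds the same amount to every log2 fold change. Values with or within the array range rest on nanog-like-MO1 replicate 3 alone. The cause of the other moves was not tested. In the RMA table the changes of the duplicate pairs reversed for cox5b2 against cox5bb (0.33) and ndufa4a against ndufa4b (0.0092). This setting for the pairs, and settings without letter-only, map-marker or dim genes were added after seeing the data. Promoter motifs and protein comparisons were not run.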
